A study of Mus musculus with 25 samples.

Results

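RNA that platelets carry into a sample of tumour cells was measured by setting cells mixed with platelets at lysis against cells alone. The mixed samples are 3 exon arrays, numbered 4 to 6 in the labels, of Ep5 (EpRas) tumour cells that met platelets just before RNA was isolated, at about 1000 platelets per cell. The cells alone are 5 exon arrays, numbered 1 to 5. These 8 arrays were chosen by the source name of each sample, out of 25 in the series. A further 5 exon arrays hold the same cells after 24 h of culture with platelets, and 12 gene arrays hold cells given platelets, the pellet from spun platelets or the fluid above it (releasate), and cells alone (3 each). All groups share the cell line, mouse EpRas cells, a mammary epithelial line with an activated Ras oncogene, given as C57BL/6 in the labels. The platelets were wild-type C57BL/6 platelets obtained by centrifugation, and the source names separate the groups by platelets or their fractions only. The sample titles differ, with Pipes for the cells alone and PHBuf for the mixed samples. Whether these names stand for different buffers was not tested. The labels do not say whether replicates were separate cultures or platelet preparations, so each p-value measures the spread between these samples only. Every group is 1 cell line, which limits it as a model.

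Platelets are shed by megakaryocytes and have no nucleus, so the RNA in them was largely made in the megakaryocyte. They store chemokines and proteoglycans in alpha granules, bind damaged vessel walls through glycoprotein receptors, and respond to ADP, thrombin and thromboxane through G-protein-coupled receptors. Where epithelial cells do not express such a gene, its signal in a mixed sample reads the RNA of the added platelets.

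The values are log2 signals deposited by the authors after RMA, a procedure that normalizes arrays together and summarizes the probes of a probe set. Each of 18997 genes was represented by 1 probe set with a single gene symbol, the one with the highest mean where a gene had several. A log2 difference of 1 is a doubling of signal. No signal was tested against background, so where the low value is background a difference understates the change. The array medians lay between 3.62 and 3.90, and the 13 exon arrays correlated at 0.976 to 0.998 over genes. The number of arrays limits the precision.

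In the mixed samples 9 genes rose against cells alone and none fell at an adjusted p under 0.05 (limma, Benjamini-Hochberg over 18997 genes). These 9 are 0.0474% of the genes tested, and the lower calls are 0%. At an unadjusted p under 0.05 there were 748 genes, 3.94% of those tested, of which 263 were higher and 485 lower. All 9 belong to lists of platelet genes: the alpha-granule genes Pf4, Ppbp and Srgn with the calmodulin-binding Nrgn, the receptors Clec1b and Cd226, the leukotriene cofactor Alox5ap, and the G-protein signalling genes Rgs18 and Gng11. The markers given for platelets, Pf4, Ppbp, Rgs18 and Clec1b, are all among them. The lists were chosen with earlier results of these data known, so membership in them is a description. Fewer platelets and less RNA per platelet cannot be told apart in such bulk samples.

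Promoters of megakaryocyte genes are known for GATA and ETS sites. Promoters were read for 5 of the 9 genes, and sequences are shown for the 3 of these with a window that holds such a match. Shared regulation was not tested. The sequences span 250 bases before to 50 after the RefSeq start of the gene on GRCm38.p6. The 5 genes have 6 promoters in all. Cd226 was left out by its chromosome, from which no sequence was read, and Rgs18, Alox5ap and Gng11 had no entry. The shares over RefSeq promoters given below were not limited by chromosome. Capitals mark the GATA letters (AGATA or TGATA followed by A or G) and the ETS letters (GGAAG after A or C), each searched on both strands. No 2 matches overlap.
Pf4, chr5:90772185-90772484, plus strand: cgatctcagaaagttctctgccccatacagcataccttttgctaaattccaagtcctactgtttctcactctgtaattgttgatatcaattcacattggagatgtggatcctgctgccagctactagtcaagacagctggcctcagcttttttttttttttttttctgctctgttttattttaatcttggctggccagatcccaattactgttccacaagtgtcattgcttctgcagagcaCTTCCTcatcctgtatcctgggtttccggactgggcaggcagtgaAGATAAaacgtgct
Clec1b, chr6:129397047-129397346, plus strand: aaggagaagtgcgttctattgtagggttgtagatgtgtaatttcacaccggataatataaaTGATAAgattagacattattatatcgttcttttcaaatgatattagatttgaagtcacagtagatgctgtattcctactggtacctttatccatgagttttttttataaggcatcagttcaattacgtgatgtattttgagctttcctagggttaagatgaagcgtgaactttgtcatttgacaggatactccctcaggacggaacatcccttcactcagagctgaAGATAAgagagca
Srgn, chr10:62527396-62527695, minus strand: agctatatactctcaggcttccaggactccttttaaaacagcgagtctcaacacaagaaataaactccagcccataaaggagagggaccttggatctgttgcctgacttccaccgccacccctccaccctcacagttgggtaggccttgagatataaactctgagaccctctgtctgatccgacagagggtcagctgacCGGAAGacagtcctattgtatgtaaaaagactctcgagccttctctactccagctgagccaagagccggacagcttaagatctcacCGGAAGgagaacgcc
The Pf4 window holds a GATA match at base 36 after the start and an ETS match, read on the other strand, that begins at -9. The Clec1b window holds GATA matches at -189 and 37, and the Srgn window ETS matches at -51 and 35. The windows of Ppbp and Nrgn, and a second start of Srgn, hold none of these letters. Of the 6 promoters, 2 hold a GATA match and 2 an ETS match. Among 32851 RefSeq promoters of the same length, 29.8% hold a GATA match, 46.5% an ETS match and 12.6% both. Positions are those of a match's first base, with the start counted as base 0, and a match is a description of the letters only.

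Among the granule genes, Pf4 (platelet factor 4, a chemokine of the alpha granule, probe set 6932368) had the largest rise of all genes tested. Its log2 level was 8.32, 8.06 and 8.06 in mixed arrays 4, 5 and 6, against 3.33, 3.28, 3.15, 3.36 and 3.13 in alone arrays 1 to 5. The 3 mixed arrays lay close together and far above all 5 alone arrays. The difference was 4.90 ± 0.25 (SE), a signal ratio of 29.8, with an adjusted p of 2.04e-06. The alone level lies below the median of the probe sets on every array.

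Ppbp (pro-platelet basic protein, the precursor of the neutrophil-attracting chemokine CXCL7, probe set 6932367) showed the rise next in size. It stood at 10.20, 10.65 and 10.43 in the mixed arrays, against 5.19, 6.56, 5.90, 7.58 and 5.84 in the alone arrays. Unlike that of Pf4, its alone level was not low: the alone mean of 6.21 lay above that of 59.9% of genes. Its alone arrays were the most spread of the 9 genes, with an SD of 0.91 (n = 5) against 0.22 (n = 3) in mixed samples. Alone array 4 was the highest of them. Ppbp rose by 4.21 ± 0.55 (adjusted p = 0.0166). Ppbp lies next to Pf4 on chromosome 5.

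Srgn (serglycin, the proteoglycan that holds chemokines in the granule, probe set 6774400) was 6.82, 7.99 and 8.02 in the mixed arrays, against 4.41, 4.66, 4.50, 4.82 and 5.21 in the alone arrays. Mixed array 4 was more than 1 log2 unit below the other two, and still above every alone array. The rise was 2.89 ± 0.38 (adjusted p = 0.0166). Nrgn (neurogranin, a calmodulin-binding protein best known from neurons, probe set 6994704) was counted with the granule list. It had 5.19, 5.96 and 5.68 in the mixed arrays, against 4.33, 4.13, 4.19, 4.21 and 4.05 in the alone arrays. Its rise of 1.43 ± 0.15 was the smallest of the 9 (adjusted p = 0.0053), and so was its SE.

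Of 18 genes measured on the granule list, these 4, Nrgn included, rose and 14 did not pass the test. The median difference of the 18 was 0.38, beside -0.04 over all genes tested. The groups did not overlap and the mixed arrays were higher for 7 of the 18, where 0.879% of all genes show that. For the von Willebrand factor gene Vwf, levels were 3.50 ± 0.05 (SD, n = 3) mixed and 3.46 ± 0.10 (n = 5) alone. For Selp, the granule membrane receptor P-selectin that was counted with the adhesion receptors, they were 3.12 ± 0.04 and 3.10 ± 0.15. Both genes encode well-known granule proteins, and the signals of both groups lie below the array medians. Among the 13 genes of the machinery that releases granules none rose (1 at an unadjusted p under 0.05), and the median difference was 0.04. In that list Stxbp2, which binds syntaxin in granule release, lay lower in every mixed array without passing (-0.31 ± 0.08, adjusted p = 0.945).

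**Figure D1:**
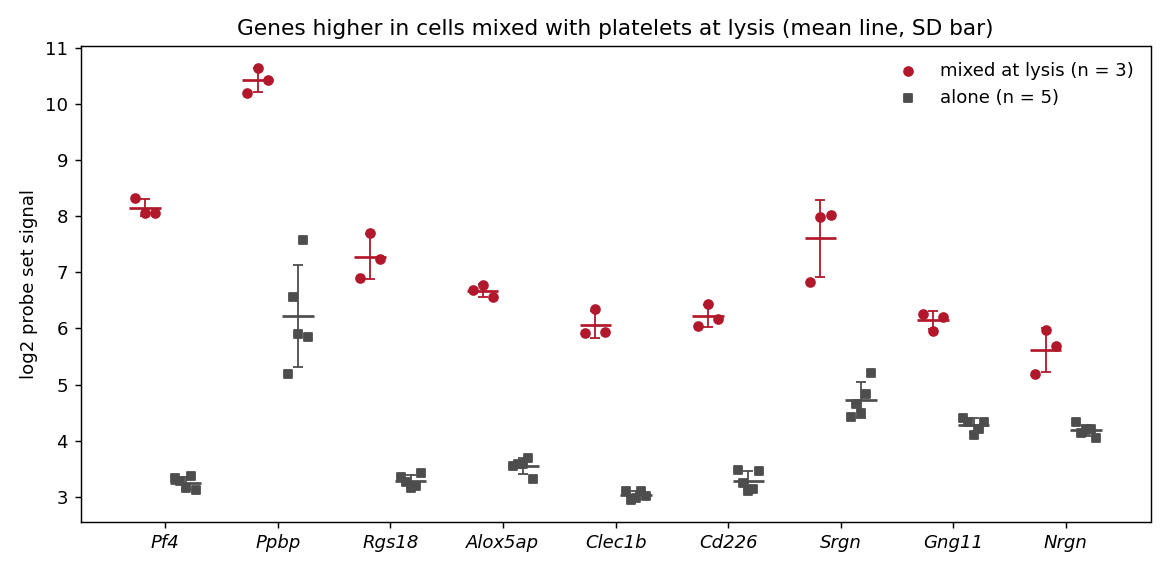
Log2 probe set signal (vertical axis) of the 9 genes that rose (horizontal axis). Red circles are the 3 arrays mixed at lysis, grey squares the 5 alone arrays, with a line at the mean and a bar for the SD; every red circle lies above every grey square of its gene, and Pf4 shows the widest gap at 4.90.

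Among the adhesion receptors, Clec1b (CLEC-2, the podoplanin receptor, probe set 6950147) was 5.92, 6.34 and 5.94 in the mixed arrays, against 3.11, 2.94, 2.98, 3.10 and 3.01 in the alone arrays. The difference was 3.04 ± 0.45 (adjusted p = 0.0371), and it did not pass with equal array medians (adjusted p = 0.0558) or repeated quantile normalization (0.0869). Cd226 (DNAM-1, an adhesion receptor of platelets and lymphocytes, probe set 6862922) had 6.05, 6.43 and 6.18, against 3.48, 3.24, 3.11, 3.15 and 3.46. Cd226 rose by 2.93 ± 0.38 (adjusted p = 0.0166). For both receptors mixed array 5 was the highest array.

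The other receptors did not pass. Gp9, a subunit of the receptor for von Willebrand factor, stood at 5.41, 5.67 and 5.31 in the mixed arrays, against 2.97, 3.28, 3.21, 3.20 and 2.93 in the alone arrays. The groups were far apart and each was tight, yet the difference of 2.34 ± 0.59 had an adjusted p of 0.823. The fit takes 1 spread for all 3 exon-array groups, and the cultured arrays of Gp9 had an SD of 1.39, against 0.19 in mixed and 0.16 in alone arrays. In a fit of the mixed and alone arrays only, Gp9 differed by 2.34 ± 0.12 with an adjusted p of 0.000119. Gp6, the collagen receptor, was 4.91, 5.43 and 4.70 in mixed arrays, against 3.62, 3.50, 3.64, 3.40 and 3.67 alone (1.45 ± 0.48, adjusted p = 0.945, and 0.0256 in the fit of both groups only). Of 20 adhesion receptors 2 rose, 7 were higher without overlap of the groups and 1 was lower, and the median difference was 0.17. Over all genes tested, 0.879% were higher without overlap and 2.43% lower. Itga2b and Gp5, both platelet glycoproteins, had levels of 4.02 ± 0.23 and 3.40 ± 0.07 in mixed samples, against 3.81 ± 0.17 and 3.46 ± 0.25 in cells alone (SD).

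Of the 12 agonist receptors none rose (3 at an unadjusted p under 0.05) and the median difference was -0.01. P2ry12, the ADP receptor that clopidogrel blocks, was 6.97, 6.73 and 6.97 in the mixed arrays, against 4.89, 5.70, 5.85, 5.89 and 5.06 in the alone arrays. All mixed arrays lay above all alone arrays, and the difference of 1.41 ± 0.28 had an adjusted p of 0.277. F2rl2, a thrombin receptor of mouse platelets, differed by 0.81 ± 0.28 (adjusted p = 0.945). The thromboxane receptor gene Tbxa2r lay lower in each mixed array, at 3.51 ± 0.07 against 3.76 ± 0.06 (SD), with a difference of -0.25 ± 0.10 (adjusted p = 0.945) between levels near the array medians.

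Alox5ap, which presents arachidonic acid to 5-lipoxygenase, was the 1 of 6 eicosanoid genes that rose. Probe set 6935701 read 6.68, 6.78 and 6.56 in the mixed arrays, against 3.54, 3.58, 3.59, 3.69 and 3.32 in the alone arrays. The mixed arrays lay close together, and the rise was 3.13 ± 0.43 (adjusted p = 0.0218). Alox12, the 12-lipoxygenase of platelets, was 3.92, 4.67 and 4.07 in mixed arrays, against 3.25, 3.10, 3.20, 3.14 and 3.02 alone. The 1.08 ± 0.45 between them did not pass (adjusted p = 0.945). Ltc4s, the leukotriene C4 synthase, differed by -0.78 ± 0.29 with overlapping groups (adjusted p = 0.945).

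Among 24 signalling genes, Rgs18 and Gng11 rose. Rgs18, a regulator that turns off G-protein signals in platelets (probe set 6762804), was 6.89, 7.69 and 7.24 in the mixed arrays, against 3.36, 3.26, 3.16, 3.19 and 3.42 in the alone arrays. Its rise of 4.0 ± 0.44 was the third in size after Pf4 and Ppbp (adjusted p = 0.0053). Gng11, a G-protein gamma subunit (probe set 6943797), was 6.26, 5.96 and 6.21, against 4.41, 4.33, 4.10, 4.2 and 4.33 (1.87 ± 0.27, adjusted p = 0.0341). The call of Gng11 was lost with equal array medians (adjusted p = 0.0564) and with repeated quantile normalization (0.155). Plek, pleckstrin, the main target of protein kinase C in platelets, was 5.37, 6.12 and 5.86 in mixed arrays, against 3.32, 3.22, 3.25, 3.14 and 3.25 alone. Its 2.55 ± 0.49 did not pass with all exon arrays (adjusted p = 0.241) and passed in the fit of both groups only (0.000298). Rgs10 differed by 0.74 ± 0.13 (adjusted p = 0.15). The median of the 24 was 0.09.

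None of the 16 cytoskeleton genes passed (4 at an unadjusted p under 0.05), and 4 were higher without overlap, as were 0.879% of all genes. Tubb1, the beta-tubulin of the platelet's marginal band, was 4.71, 5.53 and 4.80 in mixed arrays, against 3.18, 3.21, 3.24, 3.39 and 3.70 alone (1.67 ± 0.71, adjusted p = 0.945). Its cultured arrays spanned 3.63 to 7.74, wider than the range of either other group. Tmsb4x, thymosin beta-4, which binds free actin, was 8.85, 8.63 and 8.74, against 6.90, 7.66, 7.48, 8.06 and 7.45 (1.23 ± 0.21, adjusted p = 0.113). Myl9, a myosin light chain, differed by 1.27 ± 0.52 and Pdlim1 by 0.64 ± 0.16 (adjusted p = 0.945 and 0.82).

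The 14 transcription factors of megakaryocytes held differences between -0.10 and 0.18, with a median of -0.01. None passed, also at an unadjusted p under 0.05 (0 of 14), and none was without overlap. Gata1 was 3.20 ± 0.04 in mixed samples and 3.25 ± 0.09 in cells alone, and Nfe2 was 3.96 ± 0.07 and 4.04 ± 0.10 (SD, n = 3 and 5). Signals of both factors lay near or below those of a typical probe set in both groups. The list of RNAs known to be abundant in blood cells and platelets (12 measured) had a median of -0.12, and their levels in cells alone ran from 6.66 to 13.46. Fth1, the ferritin heavy chain, was 12.38, 10.62 and 10.65 in mixed arrays, against 12.60, 12.16, 12.22, 12.34 and 10.73 alone. Both groups thus held arrays near 12 and arrays near 11, and the difference of -0.79 ± 0.49 did not pass (adjusted p = 0.945). H3f3a, a histone H3.3 gene, differed by -0.61 ± 0.22 (adjusted p = 0.945).

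Over all platelet lists, 109 of 121 genes had a probe set with 1 symbol. Of these 9 rose, none fell and 100 did not pass. Mixed arrays were higher without overlap for 28 of the 109 (25.7%) and lower without overlap for 3 (2.8%). Over all genes tested the shares were 0.879% higher and 2.43% lower. Because the lists were chosen with earlier results of these data known, these shares are a description. The median of the 109 differences was 0.11, beside -0.04 over all genes, and 75 of them were above 0, as were 7136 of all 18997 genes. With the mixed and alone arrays only, 18 genes passed and 15 of them stood on these lists. Gp9, Plek, Gp6, Tubb1, Pdlim1 and Mmrn1, the granule gene multimerin 1, were the 6 list members added to the 9. Laptm5, Slc2a3 and Trpc6 were the 3 off these lists, and these names beyond the earlier ones were chosen after their values were seen.

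**Figure D2:**
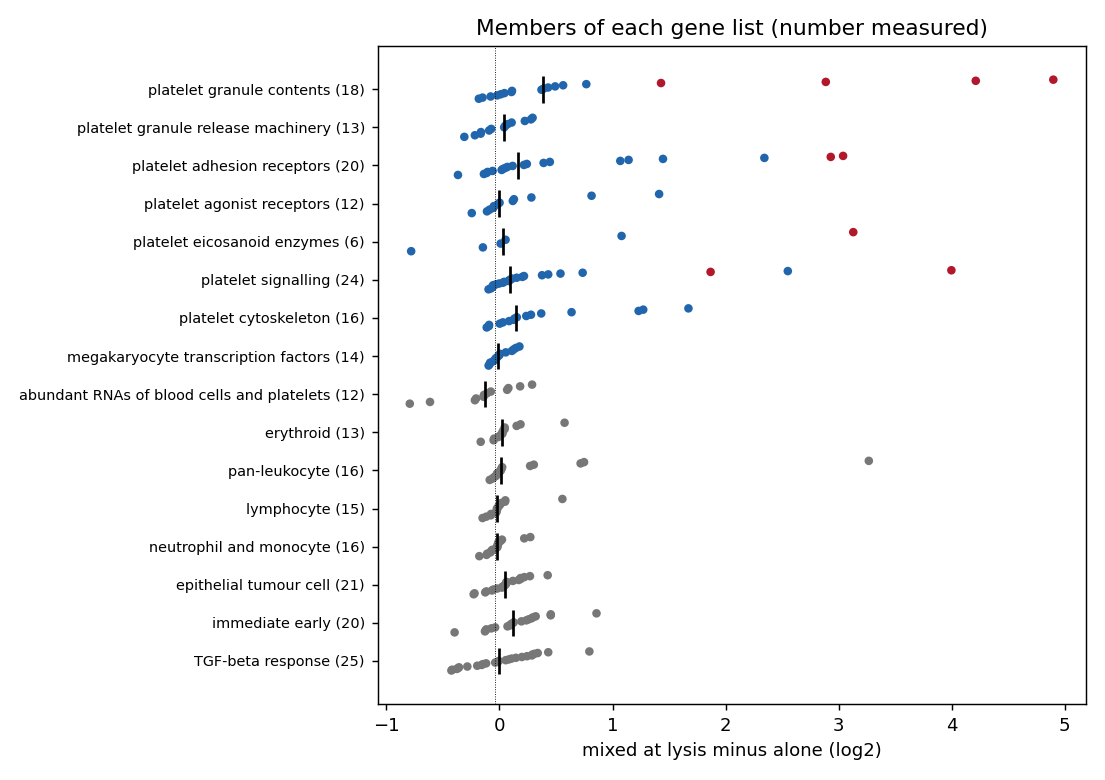
Difference in log2 signal, mixed at lysis minus alone (horizontal axis), of each measured gene in each list (rows), with a black tick at the list's median and a dotted line at the median of all genes. Red points passed the test, blue points are platelet list members that did not, and grey points belong to the other lists; red points lie in the granule contents, adhesion, eicosanoid and signalling rows.

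Laptm5, a lysosomal membrane protein of blood cells, showed the largest difference that did not pass. It was 5.86, 7.67 and 7.40 in mixed arrays, against 3.94, 3.54, 3.67, 3.64 and 3.75 in alone arrays (3.27 ± 0.52, adjusted p = 0.0649). Its other probe set differed by 2.54. Plek, Gp9, Pde5a and Tubb1 followed it among genes whose groups did not overlap. Pde5a, the phosphodiesterase that breaks down cyclic GMP, was 6.44, 7.01 and 7.59 in mixed arrays, against 5.30, 4.44, 5.26, 4.97 and 5.53 alone (1.91 ± 0.43, adjusted p = 0.49). The 5 probe sets of Pde5a did not agree, with differences between -0.01 and 2.13. The one at 2.13 (probe set 6901015, 5.74 in mixed samples and 3.61 in cells alone) passed in a fit of all probe sets, at 2.13 ± 0.23 with an adjusted p of 0.00508, but is not the brightest of the gene and so did not stand for it.

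**Figure D3:**
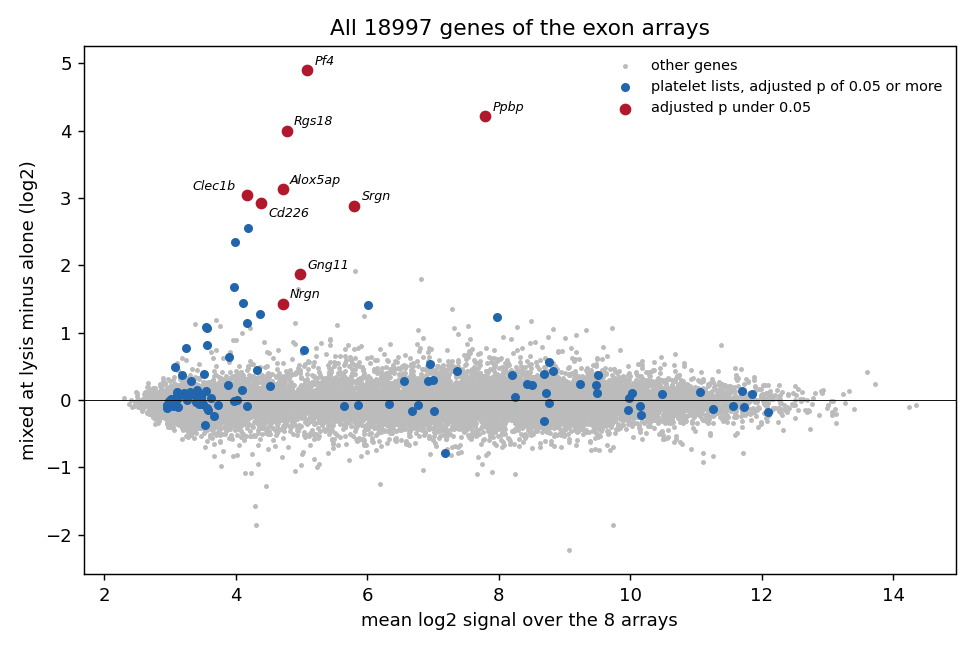
Difference in log2 signal, mixed at lysis minus alone (vertical axis), of every gene against its mean log2 signal over the 8 arrays. Red points are the 9 genes that passed, blue points other platelet list members and grey points all other genes; the red points lie between 1.43 and 4.90, and all but Ppbp have a mean signal under 6.

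Markers of other cell types were read in the same arrays. Laptm5, Cd84 and Arhgdib, which platelets and leukocytes both express, were the 3 of 16 pan-leukocyte genes that were higher without overlap, and none passed. Of all genes tested, 0.879% were higher without overlap. Cd84, an adhesion receptor, differed by 0.75 ± 0.13 (adjusted p = 0.141). The mean level of the pan-leukocyte list was 4.38 to 4.53 over mixed arrays, against 4.10 to 4.19 over alone arrays. The median difference of the 16 was 0.01, and 9 of them were above 0. The defining leukocyte gene Ptprc (CD45) was 3.03 ± 0.01 in mixed samples and 3.06 ± 0.11 in cells alone, and Cd53 and Tyrobp differed by -0.02 and -0.05. The 15 lymphocyte genes averaged 3.40 to 3.50 on mixed arrays, against 3.34 to 3.53 on alone arrays. The 16 neutrophil and monocyte genes averaged 3.79 to 3.95, against 3.76 to 3.99. No gene of these lists passed, and at an unadjusted p under 0.05 there were 2 pan-leukocyte genes, 0 lymphocyte genes and 1 neutrophil or monocyte gene. In the lymphocyte, neutrophil and monocyte lists the groups overlapped for every gene.

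The 13 erythroid genes with a single symbol gave differences between -0.17 and 0.58 with a median of 0.03. Their mean lay at 5.07 to 5.12 on mixed arrays and 4.93 to 5.11 on alone arrays, and Alas2, the first enzyme of haem synthesis in red cells, differed by 0.15 ± 0.09 (adjusted p = 0.945). The adult globin genes are not among these 13, because the annotation pairs their probe sets with several genes. These sets were looked up after the values were seen, in a fit of all 44343 probe sets, in which 14 sets (0.0316%) were higher and none lower. Of these 14, 8 have a single symbol, 4 hold globin genes and 2 others have several symbols or none. Probe set 6779839, paired with Hba-a1 and Hba-a2, the alpha-globin genes, had the largest difference of the table. It was 9.53, 9.16 and 9.0 in mixed arrays 4, 5 and 6, against 3.45, 3.85, 3.48, 3.96 and 3.39 in alone arrays (5.61 ± 0.27, adjusted p = 4.73e-06). Probe set 6969997, paired with the beta-globin genes Hbb-b1 and Hbb-b2, was 7.99, 7.14 and 6.77, against 2.99, 3.04, 2.78, 2.92 and 2.89 (4.38 ± 0.45, adjusted p = 0.00407). Probe sets 6970000 (3.86 ± 0.39, adjusted p = 0.00393) and 6779840 (2.30 ± 0.19, adjusted p = 0.000736) hold globin genes too. No value can be given to 1 globin gene.

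The order of the 3 mixed arrays was read for globin signal and for the genes that rose. Mixed array 4 was the highest of the 3 in all 4 globin probe sets. Of the 9 genes that rose, mixed array 4 was lowest for 6 and highest for 2, and mixed array 5 was highest for 6. The 2 with mixed array 4 highest, as in the globin sets, were Pf4 and Gng11. Red cells, reticulocytes and platelets can all hold globin RNA, and their part in these levels was not tested.

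**Figure D4:**
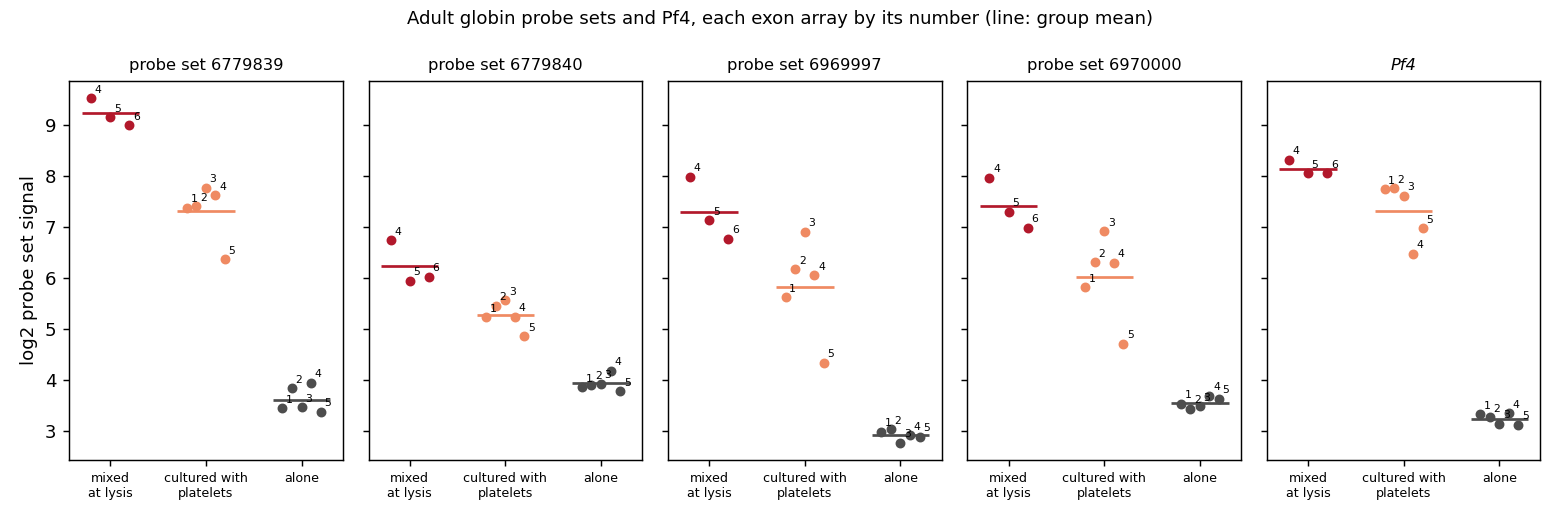
Log2 signal of the 4 globin probe sets and of Pf4 on each exon array, labelled with its number, by group from mixed at lysis over cultured with platelets to alone, with lines at group means. In the globin panels every mixed array lies above every alone array, mixed array 4 is the highest array, and cultured array 5 is the lowest of its group.

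The tumour cells' own genes give a check on the cells. Krt8 and Krt18, the keratins of simple epithelia, were 12.73 ± 0.27 and 12.93 ± 0.24 in mixed samples, against 12.96 ± 0.09 and 13.15 ± 0.11 in cells alone (SD, n = 3 and 5). The 21 epithelial genes averaged 9.30 to 9.34 on mixed arrays and 9.17 to 9.43 on alone arrays, with differences between -0.23 and 0.43 and 0 passing, also at an unadjusted p under 0.05. Cdh1 and Epcam, which define epithelial cells, had at least 10.09 on every mixed array and 10.07 on every alone array.

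Genes that respond to signals within minutes were read as a check on the moment of mixing. None of 20 immediate early genes passed (2 at an unadjusted p under 0.05) and their median was 0.12. Egr3, a zinc finger factor, was 5.0, 5.25 and 5.99 in mixed arrays, against 4.24, 4.77, 4.66, 4.59 and 4.51 alone. All mixed arrays lay above all alone arrays, with 0.86 ± 0.19 between the groups (adjusted p = 0.49). Nr4a1 and Fosb differed by 0.45 ± 0.26 and 0.45 ± 0.19 (adjusted p = 0.945 each). Of 25 TGF-beta response genes none passed (2 at an unadjusted p under 0.05), and the median was -0.01. The EMT factor Snai1 differed by 0.79 ± 0.42 (adjusted p = 0.945). The 10 genes chosen earlier from these arrays for the largest rises after 24 h with platelets had differences between -0.30 and 0.43 at lysis. Among them the gelatinase Mmp9 was 4.2 ± 0.36 mixed and 3.92 ± 0.30 alone, and the chaperone Clu differed by 0.39 ± 0.16 (adjusted p = 0.945 each).

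No gene fell, though 461 genes (2.43%) were lower in every mixed array than in every alone array. The 5 with the largest differences were Vim, Itgad, AU041133, Bcas1os2 and Dtnbp1, between -2.23 and -0.84, each with an adjusted p of 0.945. Vim, the intermediate filament of mesenchymal cells, was 8.10, 7.74 and 7.20 in mixed arrays 4 to 6. In cells alone it was between 10.76 and 11.20 on arrays 1 to 3, and 8.13 and 8.45 on arrays 4 and 5. The cultured arrays had the same step, with 10.95, 11.05 and 11.29 on numbers 1 to 3 and 8.34 and 8.91 on numbers 4 and 5. The mixed samples carry only the numbers 4 to 6, so a difference that goes with the numbers cannot be told apart from mixing in alone arrays 1 to 3. In a fit of the arrays numbered 4 to 6 only, where 2 alone arrays remain, Vim differed by -0.61 ± 0.30. Between alone arrays 4 and 5 and alone arrays 1 to 3, 1 gene of 18997 passed. With so few arrays this test has little power, so the count does not show that the sets are alike. Dtnbp1, a subunit of the complex that forms lysosome-related organelles, was 7.82, 7.33 and 6.30 mixed, against 7.95, 8.13, 7.99, 7.91 and 8.01 alone, with mixed array 6 the lowest.

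With the arrays numbered 4 to 6 only, the differences of the 9 genes lay between 1.48 and 4.90. Pf4 differed by 4.90 ± 0.19 (adjusted p = 0.00246), Alox5ap by 3.17 ± 0.21 (0.0379) and Gng11 by 1.88 ± 0.14 (0.0427), and these 3 passed. Rgs18 differed by 3.97 ± 0.33 (0.0749), Ppbp by 3.72 ± 0.57 (0.979), Clec1b by 3.01 ± 0.33 (0.206), Cd226 by 2.91 ± 0.26 (0.091), Srgn by 2.59 ± 0.43 (1) and Nrgn by 1.48 ± 0.25 (1). With 1 array left out in turn, the call of Pf4 was kept in all 8 fits, that of Nrgn in 7 and that of Rgs18 in 6. Srgn kept it in 3, Ppbp and Cd226 in 1, and Alox5ap, Clec1b and Gng11 in 0. The number of genes higher was 3 without alone array 1, 2 or 3, 7 without alone array 4, 4 without alone array 5, 6 without mixed array 4 (with 1 gene lower, Inca1, named after its value was seen), 2 without mixed array 5 and 1 without mixed array 6.

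The same genes were read in the cells cultured for 24 h with platelets. This comparison shares the alone arrays and the estimate of spread by which the 9 genes were called, so it is a description and not a separate test of them. All 5 cultured arrays lay above every alone array for each of the 9 genes, and all 9 passed against cells alone, where 2.07% of genes were higher. Pf4 was 8.15 ± 0.15 in the mixed samples (n = 3), 7.32 ± 0.57 in the cultured samples and 3.25 ± 0.11 in cells alone (SD, n = 5 each). Its 5 cultured arrays were 7.75, 7.77, 7.62, 6.49 and 6.98, each below every mixed array, and the difference of cultured from mixed samples was -0.83 ± 0.25 (adjusted p = 0.106). Gng11 had 6.71, 6.63, 6.52, 5.41 and 5.60 in culture, beside a mixed mean of 6.14. Cultured arrays 4 and 5 lay below every mixed array for 7 of the 9 genes. Cultured arrays 1 to 3 lay above every mixed array for Alox5ap and Gng11, and only for Pf4 were all 5 cultured arrays below. The alpha-globin probe set 6779839 averaged 9.23 ± 0.27 in mixed, 7.31 ± 0.55 in cultured and 3.62 ± 0.26 in alone samples.

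Over the 13 exon arrays the genes most like Pf4 were Rgs18 (Pearson r = 0.977), Alox5ap (0.968), Cd226 (0.968), Gng11 (0.961) and Clec1b (0.961). All 5 are among the 9 genes that rose. The arrays share the split between samples with and without platelets, so this likeness is a description.

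The 12 gene arrays hold other samples, and the 9 genes were looked up there. For 2 of these arrays, alone 8 and platelets 9, the platelet description in the labels contradicts the source name, which was followed. With whole platelets for 24 h, Pf4, Clec1b and Cd226 rose against cells alone, 3 of the 9, where 0.411% of 19938 genes were higher. At an unadjusted limma p under 0.05, 7 of the 9 were higher, as were 1074 of the 19938 genes. Pf4 was 6.90, 6.90 and 6.01 with platelets, against 4.63, 4.78 and 4.83 alone (1.86 ± 0.25, adjusted p = 0.0101). Clec1b was 5.24, 5.38 and 5.36, against 4.54, 4.60 and 4.63 (0.74 ± 0.06, adjusted p = 0.00162). Cd226 was 6.08, 5.82 and 6.17, against 5.11, 5.08 and 5.11 (0.92 ± 0.11, adjusted p = 0.00608). Without platelets 9 there were 4 such genes, and without alone 8 there were 3.

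With the platelet pellet the same 3 genes rose, where 0.236% of genes were higher. At an unadjusted limma p under 0.05, 6 of the 9 were higher, as were 1102 of the 19938 genes. The differences were 1.60 ± 0.25 for Pf4, 0.50 ± 0.06 for Clec1b and 0.74 ± 0.11 for Cd226, with adjusted p of 0.0265, 0.0134 and 0.021. Without alone 8, pellet 8 or pellet 9, 1 of the 9 passed, and without alone 7 or alone 9 none did. With the releasate none of the 9 passed, nor did any of the 19938 genes (0%) by limma. At an unadjusted p under 0.05, 386 genes were higher and 177 lower with releasate, and none of the 9 was higher. Ppbp was lower with releasate than alone, with a difference of -1.13 ± 0.42. Pf4 was 4.78, 4.76 and 4.78 with releasate, against 4.63, 4.78 and 4.83 alone. Pellet minus releasate was 1.57 ± 0.25 for Pf4 (adjusted p = 0.0871), and none of the 9 passed in that comparison, in which 0% of genes were higher and 0.00502% lower. Ppbp was 10.38 ± 0.13 with platelets, 10.02 ± 0.26 with pellet, 7.84 ± 0.63 with releasate and 8.96 ± 1.00 alone (SD, n = 3 each), and none of these passed against alone. The 4 globin probe sets of the gene arrays differed by 0.45 to 0.61 with platelets, 0.23 to 0.59 with pellet and 0.00 to 0.08 with releasate, and none passed. Both array types were normalized separately and labelled with different kits, so no level was compared between them.

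**Figure D5:**
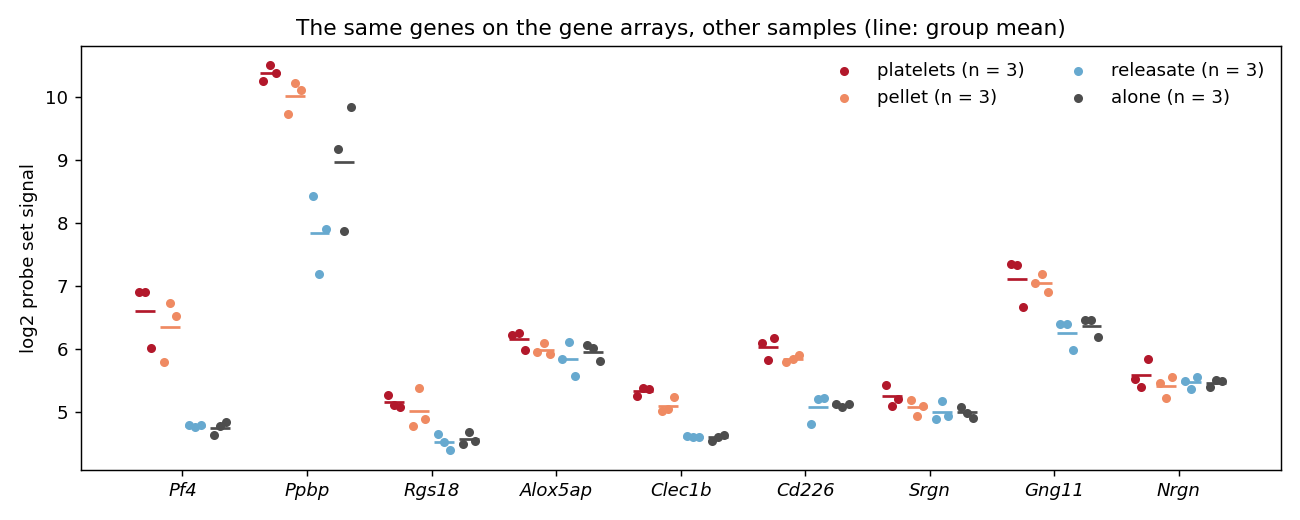
Log2 signal of the 9 genes on the 12 gene arrays, with platelets, pellet, releasate and alone from left to right for each gene and lines at group means. For Pf4, Clec1b, Cd226, Rgs18 and Gng11 all platelet and pellet points lie above all alone points. Releasate means minus alone means are 0.03 for Pf4, 0.01 for Clec1b, -0.03 for Cd226, -0.05 for Rgs18 and -0.11 for Gng11. For Ppbp it is -1.13, the widest of the 9.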

How the data were processed

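RNA was measured on 13 Affymetrix mouse exon arrays and 12 mouse gene arrays. Per the submitters' processing notes, Partek 6.4 (exon) and Partek 6.5 (gene) with RMA made the deposited log2 values. The options of RMA are not given in the sources used here. Per the labels' protocols the exon arrays were labelled with an Affymetrix WT Sense Target kit. Samples were grouped by source name. The platform annotation, which can be old, gives a single symbol to 22781 of 44343 exon probe sets, more than 1 to 2085 and none to 19477. Gene arrays gave 19938 genes. Fits used limma 3.58.1 in R 4.3.3 on all arrays of a table, with empirical Bayes moderation and Benjamini-Hochberg adjustment over its genes. Arrays have no read depth, so precision rests on how many there are.

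Named genes are all that passed, the platelet markers, up to 4 members of each list by size of difference, the 5 largest differences in each direction that did not pass without overlap of the groups, and the 5 genes most like Pf4. The members and lists were chosen with earlier results of these data known. On simulated data for the mixed against alone comparison (18997 genes, 200 changed, 3 tables) the test recovered 42% of genes changed by 0.5, 80.7% at 1, 95.3% at 2 and 100% at 4 log2 units. Only 9 genes passed in the data, so these shares may not hold there. Mixed and alone samples share the numbers 4 and 5, whose deviations from the group means correlated at 0.652 and 0.44. With 2 shared numbers and no label on pairing, they were not taken as pairs. Alternatives were other scalings, filters, weights, blocks, sets of arrays and leaving out each array.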

Additional observations from a re-analysis of the deposited data

Results flagged for a closer look

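Fth1 on alone array 5 was 10.73, far from the other 4 alone arrays at 12.16 to 12.60. The alpha-globin probe set 6779839 on cultured array 5 was 6.37, below the other 4 cultured arrays at 7.39 to 7.77. Both stand apart by Dixon's criterion, which was applied to 60 groups of values and picked out these 2. Chance alone picks out about 1 group in 20.

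Signal also appeared in probe sets with no gene symbol, which the comparison of genes leaves out. Probe set 7014035 was 5.60, 5.80 and 5.65 in mixed arrays, against 4.12 to 4.48 in alone arrays, a difference of 1.42. Probe set 6787105 was 3.97, 4.57 and 4.74 in mixed arrays, against 3.02 to 3.49 in alone arrays, a difference of 1.15.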

How the results depend on the processing

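In the main comparison 9 genes were higher in mixed than in alone samples and 0 lower. The count was 18 with the mixed and alone arrays only, 3 with numbers 4 to 6 only and 1 with a replicate block on the numbers, that 1 being Pf4. With all probe sets fitted, 14 sets passed: 7 of the 9 genes (not Clec1b and Gng11), a set of Pde5a and 6 sets without a single symbol. With array weights 231 genes passed, 93 higher and 138 lower. Of the platelet list members 15 passed with both groups only, 18 with array weights, 3 with numbers 4 to 6 only and 1 with the replicate block. Leaving out 1 array at a time gave 1 to 7 genes changed, 1 to 7 higher, 0 to 1 lower and 1 to 7 platelet list members. Equal medians (7 genes) and repeated quantile normalization (8 genes, with Tmsb4x added) each lost Clec1b and Gng11. The mean of a gene's probe sets, leaving out dim genes, moderation with a trend, and the sets of numbers as a block kept all 9, with 9 to 11 genes in all. With the replicate block, Snai1 turned to -0.054 and Mmp9 to -0.038, and the cause was not tested. Among the differences of single genes and probe sets under the other settings, 730 kept direction and side of the threshold, 70 no longer passed, 28 newly passed and these 2 reversed.

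On the gene arrays, 5 of the 9 genes were higher with platelets under the replicate block, against 3 without it. Leaving out 1 array gave 2 to 4 with platelets, 0 to 3 with pellet and 0 to 0 with releasate. With numbers 4 to 6 only, the globin probe sets kept differences of 5.56, 2.25, 4.39 and 3.75, with adjusted p between 0.167 and 0.827. With 3 mixed arrays, small differences are hard to call: the simulation recovered 42% of genes changed by 0.5. Larger differences can be missed too, as Plek (2.55) and Gp9 (2.34) did not pass in the main fit. The simulation changed 200 genes per table, where 9 passed in the data, so its shares may not hold for these data.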
